A study of Homo sapiens with 4 samples.

Results

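The fibroblast growth factor (FGF) receptors, ligands and binding protein described here are 8 genes, the members of this family named for the comparison: FGFR1, FGFR2, FGFR3, FGFR4, FGFRL1, FGFBP1, FGF2 and FGF5. They were taken from the deposited gene count table by matching its Ensembl gene identifiers to these symbols, and all 8 were found among the 58233 genes listed. RNA was sequenced from MCF10AT, a human mammary epithelial line transformed by HRasG12V, an oncogenic HRAS. Of the 4 libraries, 2 carry the genotype label Bromo+/- and 2 the label Non-target control. Values given under the Bromo+/- label are those of the first pair. The series' title speaks of an EP300 knockdown and the protocols of shRNA carried by lentivirus and selected with puromycin, but the genotype label of this pair names no shRNA and does not spell out the allele. The medium of all cells held insulin, hydrocortisone, cholera toxin, horse serum and epidermal growth factor, and no FGF is listed for it. Whether the 2 libraries of a group came from separate cultures or from a single clone is not given in the sources used here. A p-value therefore reads the spread of these libraries alone, part or all of which may be technical. The 2 count columns of a group share a number in their names, whose meaning is not given. If each group is a single line, a difference between the labels cannot be told apart from a difference between 2 lines.

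Most FGFs are secreted proteins that bind receptor tyrosine kinases at the cell surface together with heparan sulfate, and the receptors then signal through FRS2, RAS and the MAP kinases. Epithelial and mesenchymal cells use different splice forms of FGFR1 to FGFR3, which changes the ligands they answer to, and the splicing factors ESRP1 and ESRP2 favour the epithelial form. In the mammary gland, FGFR1 and FGFR2 take part in branching of the ducts and in stem and progenitor cell upkeep. Counts per gene do not separate the splice forms.

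The promoters of FGF2, FGFBP1 and FGFR2 are shown because FGF2 rose while FGFBP1 and FGFR2 fell, FGFBP1 by the widest margin among the 8 genes. The sequences are from RefSeq (GRCh38.p14) and end just before the first base of the gene in the deposited table. The FGF2 sequence is chr4:122826581-122826707 on the plus strand, that of FGFBP1 is chr4:15938741-15938990 on the minus strand, and that of FGFR2 is chr10:121598459-121598694 on the minus strand. Capitals mark the GC box GGGCGG, on either strand, a letter string that Sp1-type factors bind.
FGF2: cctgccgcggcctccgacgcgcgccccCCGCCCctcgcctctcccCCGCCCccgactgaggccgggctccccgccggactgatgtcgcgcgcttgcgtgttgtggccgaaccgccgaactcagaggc
FGFBP1: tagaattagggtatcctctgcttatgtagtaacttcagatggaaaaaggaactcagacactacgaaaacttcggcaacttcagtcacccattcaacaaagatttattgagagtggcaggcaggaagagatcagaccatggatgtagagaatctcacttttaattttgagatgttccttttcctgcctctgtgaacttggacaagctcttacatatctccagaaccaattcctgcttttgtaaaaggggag
FGFR2: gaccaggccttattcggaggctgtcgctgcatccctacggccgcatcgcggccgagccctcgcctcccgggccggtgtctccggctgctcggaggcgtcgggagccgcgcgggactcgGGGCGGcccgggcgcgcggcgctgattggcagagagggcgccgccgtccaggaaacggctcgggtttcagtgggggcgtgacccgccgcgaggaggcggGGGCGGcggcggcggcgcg
The FGF2 and FGFR2 stretches were rich in G and C (78% each) and held 20 and 40 CpG dinucleotides. The median was 4 and 10 over 34943 promoters, in windows of the same length and the same place relative to the RefSeq start of transcription. For FGF2 and FGFR2 these windows stop short of that start, since the deposited gene begins upstream of it. The FGFBP1 stretch was 40.8% G and C and held 2 CpG dinucleotides, against a median of 11. FGF2 and FGFR2 each held 2 GC boxes, which 21.8% and 40.8% of all promoters carry in windows of those lengths, and FGFBP1 held none, where 42.5% carry the box. Neither the E-box CACCTG nor the AP-1 string TGANTCA was found on either strand in these 3 stretches. The E-box stands in 9.86% to 17.5% of all promoters at these lengths and the AP-1 string in 3.17% to 6.59%, and no 2 of the strings searched overlapped. A match is a description of letters, and its absence says nothing beyond these windows.

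The libraries held 10835237 to 11975396 counts, so that 3 counts correspond to 0.245 to 0.287 CPM in a library, where CPM are counts scaled to a library of 1000000 counts. EP300, the gene in the title of the series, stood at 121 and 126 CPM under the Bromo+/- label and at 106 and 111 CPM in the controls (log2 fold change 0.19, SE 0.06, adjusted p = 0.00701, edgeR). It was thus not lower under that label, and the call ended without control replicate 1 (adjusted p = 0.162; 0.000105 to 0.162 over the alternatives) and with the DESeq2 Wald test (0.0639). Across all 13179 genes tested, 53.5% passed an adjusted p of 0.05, 26.4% higher and 27.1% lower under the Bromo+/- label, with a median log2 fold change of 0.01. When libraries were scaled by their size alone, 4433 genes were higher and 2794 lower, against 3485 and 3570 as reported. Of the epithelial markers read as a check of the cell type, all 5 tested luminal and all 6 tested basal genes were lower: the summed level of the luminal list was 527 to 550 CPM against 3950 to 4020 CPM in the controls, and that of the basal list 949 to 955 against 5690 to 5860 CPM. KRT14 had no count under the Bromo+/- label. The summed level of the 6 fibroblast markers was 86.5 to 88.7 CPM against 3.72 to 4.49 CPM, with DCN alone at 80.2 and 78 CPM under the Bromo+/- label. Both tested markers of that list, DCN and COL1A1, rose, while COL1A2 had 1 count in all libraries together and PDGFRA, PDGFRB and THY1 had at most 6 in any library. Endothelial markers summed to at most 4.58 CPM in any library, with VWF at 0. Of the 2 tested, KDR was higher (log2 fold change 1.4). PECAM1 did not pass (-0.61), at 2.12 and 1.86 CPM under the Bromo+/- label against 3.72 and 2.42 CPM. Leukocyte markers summed to at most 6.78 CPM, with CD3E at 0 and nearly all of it from CD14, which was lower (-0.74). In bulk RNA, fewer cells of a type and less RNA per cell cannot be told apart.

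Of the 8 genes, 6 had enough counts to be tested and all 6 passed the threshold, 3 higher and 3 lower, where 53.5% of all tested genes passed. FGFR1, FGF2 and FGFRL1 rose, and FGFBP1, FGFR2 and FGFR4 fell. For each of these 6 genes the values of the groups did not overlap, which held for 75.2% of all tested genes. FGFR1 and FGF2 were among the 2.67% of tested genes that rose by at least 4-fold on the fitted scale, and FGFBP1 among the 3.77% that fell by as much. FGFR3 and FGF5 were not tested: FGFR3 had 1 count in all and FGF5 had 1 count under the Bromo+/- label and 2 in the controls, so that both groups held no more than 3 counts (0.127 and 0.136 CPM), and no fold is given.

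**Figure D1:**
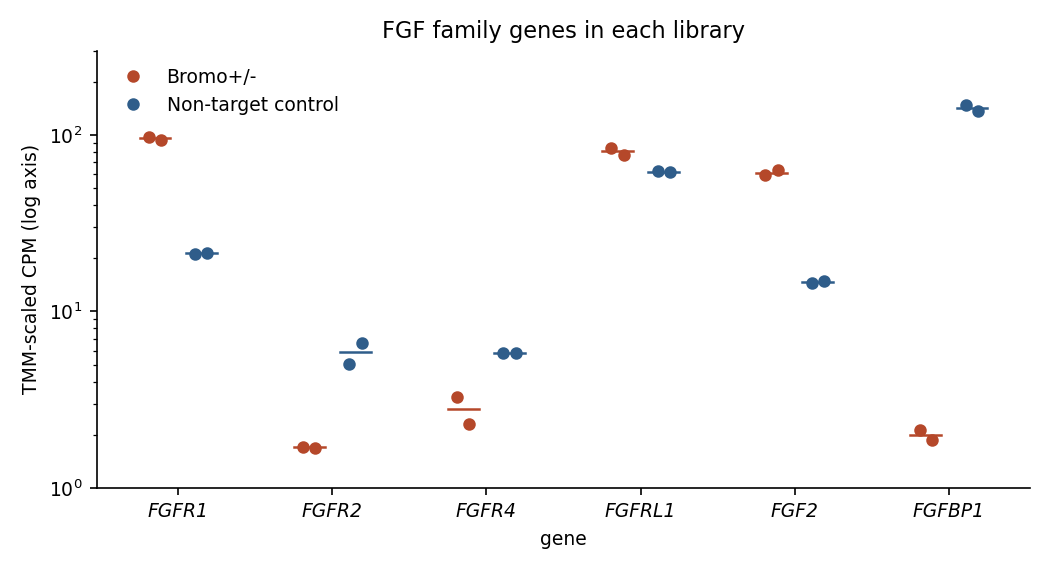
Scaled CPM (log axis) of the 6 tested FGF family genes, with a point for each library and a line at the mean of each group of 2. FGFR1, FGF2 and FGFRL1 are higher and FGFR2, FGFR4 and FGFBP1 lower under the Bromo+/- label, and the groups do not overlap for any of the 6 genes.

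Among the receptors, FGFR1 showed the largest difference. FGFR1 encodes a receptor tyrosine kinase whose mesenchymal splice form answers to FGF2 among other ligands (ENSG00000077782, chromosome 8, 38411138 to 38468834, minus strand, GRCh38). It had 1200 and 1063 counts under the Bromo+/- label and 222 and 248 in the controls, or 97.8 and 94.2 CPM against 21.2 and 21.4 CPM. Both libraries of a group were close to each other and far from the other group. The mean was 96 ± 2.58 CPM against 21.3 ± 0.17 CPM (SD, n = 2 per group). FGFR1 rose by 2.17 on the log2 scale (SE 0.09, adjusted p = 5.1e-72, edgeR), or 4.5-fold. A non-coding gene on the opposite strand shares 156 bases with the exons of FGFR1 and had at most 2 counts in any library.

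FGFR2, the receptor whose epithelial splice form answers to FGF7 and FGF10 from the stroma, fell (ENSG00000066468, chromosome 10, 121478334 to 121598458, minus strand). It had 21 and 19 counts under the Bromo+/- label and 53 and 77 in the controls, or 1.71 and 1.68 CPM against 5.06 and 6.66 CPM. The control libraries differed more from each other than the other pair, and both were above it. FGFR2 changed by -1.79 on the log2 scale (SE 0.27, adjusted p = 9.56e-11, edgeR), which is 3.46-fold lower. FGFR4, the receptor for FGF19-type ligands with the co-receptor KLB (ENSG00000160867, chromosome 5, 177086886 to 177098144, plus strand), had 40 and 26 counts against 61 and 67. Its levels were 3.26 and 2.3 CPM against 5.83 and 5.79 CPM, with the spread this time under the Bromo+/- label. FGFR4 fell by 1.05 on that scale (SE 0.23, adjusted p = 1.95e-05, edgeR), or 2.07-fold. FGFR3, the remaining receptor kinase (ENSG00000068078, chromosome 4, 1793307 to 1808872, plus strand), had a single count, in control replicate 2.

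The mix of receptor kinase transcripts differed between the groups when levels were set against gene length, as scaled CPM per kilobase of exon (RPKM). The summed level of FGFR1 to FGFR4 was 8.6 and 8.11 RPKM under the Bromo+/- label and 3.54 and 3.78 RPKM in the controls. FGFR1 made up 89.5% and 91.4% of that sum under the Bromo+/- label and 47.1% and 44.6% in the controls. The share of FGFR4 was 7.85% and 5.88% against 34% and 31.7%, and that of FGFR2 was 2.63% and 2.74% against 18.8% and 23.2%. FGFR1 thus stood 34.1 and 33.4 times above FGFR2 per length under the Bromo+/- label and 2.5 and 1.92 times above it in the controls. With the length of the principal transcript in place of all exon bases, a choice made after the data were seen, FGFR1 took 91.2% and 92.5% against 50.5% and 47.3%, and the order of FGFR2 and FGFR4 in the controls was no longer fixed. FGFR2 was then at 1.65 and 2.18 RPKM there and FGFR4 at 1.87 and 1.86 RPKM.

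**Figure D2:**
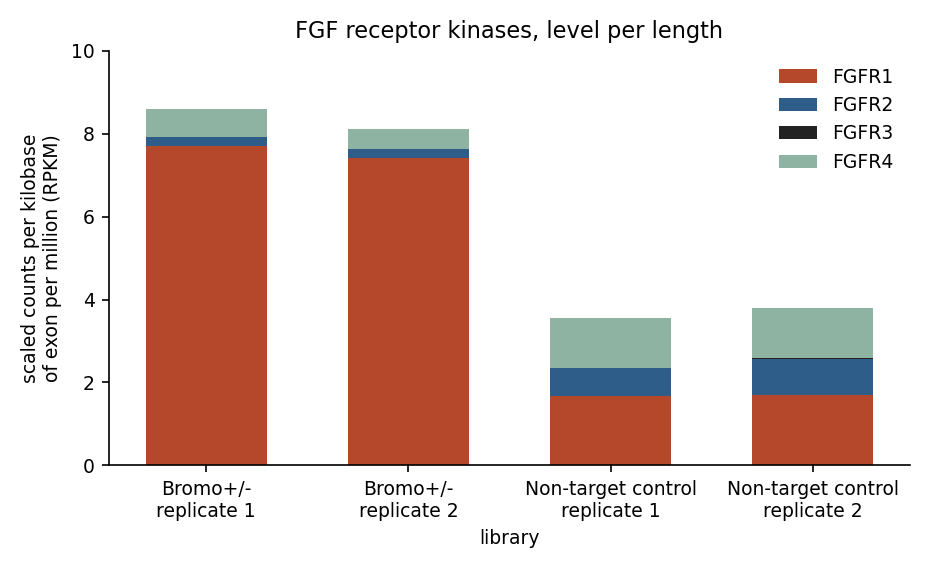
Level per length (scaled RPKM) of the 4 receptor kinase genes in each library, stacked so that the bar height is their sum. The bars reach 8.6 and 8.11 under the Bromo+/- label, nearly all of it FGFR1, and 3.54 and 3.78 in the controls, where FGFR2 and FGFR4 together exceed FGFR1, which with the principal transcript length no longer holds in control replicate 1 (FGFR1 at 50.5%).

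FGFRL1 encodes a receptor-like protein that binds FGFs and heparin but lacks the kinase domain (ENSG00000127418, chromosome 4, 1009936 to 1026897, plus strand). It had 1041 and 868 counts under the Bromo+/- label and 652 and 709 in the controls, or 84.8 and 76.9 CPM against 62.3 and 61.3 CPM. The groups did not overlap, but they were closer than for any other tested gene of the family. FGFRL1 rose by 0.39 on the log2 scale (SE 0.07, adjusted p = 5.34e-07, edgeR), or 1.31-fold. Per length FGFRL1 stood above each receptor kinase in every library, at 20.5 and 18.5 RPKM under the Bromo+/- label and 15 and 14.8 RPKM in the controls. The ratio of FGFR1 to FGFRL1 per length was 0.376 and 0.4 under the Bromo+/- label and 0.111 and 0.114 in the controls. This ratio is higher in both groups with the principal transcript length. FGFR1 was then at 16.6 and 16 RPKM and FGFRL1 at 23.3 and 21.1 RPKM under the Bromo+/- label. In the controls FGFR1 was at 3.59 and 3.63 RPKM and FGFRL1 at 17.1 and 16.8 RPKM.

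FGF2, basic FGF, is a ligand of FGFR1 that leaves cells without a signal peptide and is held by heparan sulfate in the matrix (ENSG00000138685, chromosome 4, 122826708 to 122898236, plus strand). It had 729 and 712 counts under the Bromo+/- label and 151 and 171 in the controls. The levels were 59.4 and 63.1 CPM against 14.4 and 14.8 CPM, each pair close together. FGF2 rose by 2.07 on the log2 scale (SE 0.1, adjusted p = 1.33e-58, edgeR), or 4.19-fold. NUDT6, a gene on the opposite strand, shares 804 bases with the exons of FGF2 (11.9% of them). NUDT6 had 42 and 47 counts against 34 and 35 and did not pass the test (log2 fold change 0.27, adjusted p = 0.356, edgeR), and the strand setting of the counting is not given. FGF5, a ligand best known from the hair cycle, lies on the same chromosome (ENSG00000138675, 80266599 to 80336680, plus strand) and had 0 and 1 counts under the Bromo+/- label and 2 and 0 in the controls. At this depth a difference in FGF5 was not detectable. Of the 6 fibroblast markers, only DCN and COL1A1 had enough counts to be tested, and both were higher along with FGF2 and FGFR1. COL1A2 had 1 count in all. The part of the fibroblast markers in these rises was not tested.

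FGFBP1 encodes a secreted carrier that frees FGFs, FGF2 among them, from heparan sulfate, and is a gene of surface and squamous epithelia (ENSG00000137440, chromosome 4, 15935569 to 15938740, minus strand). It had 26 and 21 counts under the Bromo+/- label and 1542 and 1581 in the controls. In CPM it stood at 2.12 and 1.86 against 147 and 137, with a wide gap between the groups. FGFBP1 fell by 6.14 on the log2 scale (SE 0.22, adjusted p = 1.66e-131, edgeR) and was 70.7-fold lower. Per length, FGFBP1 was the most abundant of the 8 genes in the controls, at 108 and 101 RPKM, where FGF2 was at 2.13 and 2.18 RPKM. In the libraries labelled Bromo+/- it was at 1.56 and 1.37 RPKM and FGF2 at 8.77 and 9.31 RPKM, so the order of the carrier and this ligand was opposite in the groups. The carrier exceeded FGF2 by 50.9 and 46.1 times in the controls, and FGF2 exceeded the carrier by 5.62 and 6.8 times under the Bromo+/- label. The tested luminal and basal markers fell together with FGFBP1, FGFR2 and FGFR4, and their part in these falls was not tested.

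Ordered by level per length, the controls had FGFBP1 (104 ± 5.5 RPKM, SD, n = 2), FGFRL1 (14.9 ± 0.165), FGF2 (2.16 ± 0.038), FGFR1 (1.68 ± 0.0134), FGFR4 (1.2 ± 0.0048) and FGFR2 (0.773 ± 0.149). In the libraries labelled Bromo+/- the order was FGFRL1 (19.5 ± 1.36 RPKM), FGF2 (9.04 ± 0.381), FGFR1 (7.56 ± 0.203), FGFBP1 (1.46 ± 0.135), FGFR4 (0.576 ± 0.14) and FGFR2 (0.224 ± 0.00267). Neighbours in both orders were further apart than their libraries' values. With the principal transcript length, however, FGFR4 and FGFR2 overlapped in the controls, and the gap between FGF2 and FGFR1 turned. FGFR1 was then at 16.6 and 16 RPKM under the Bromo+/- label and FGF2 at 8.93 and 9.48 RPKM, and in the controls FGFR1 was at 3.59 and 3.63 RPKM and FGF2 at 2.17 and 2.22 RPKM. FGFR3 and FGF5 were last, at no more than 0.0318 RPKM in any library.

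The other 20 FGF ligand genes were nearly silent. Of these, 11 had no count in any library, among them FGF10, and FGF7 had 3 counts, all in Bromo+/- replicate 2. Only 3 of the 20 could be tested, and FGF18 was higher (13 and 14 counts against 5 and 4, log2 fold change 1.46, adjusted p = 0.0105, edgeR), FGF14 lower (24 and 19 against 34 and 35, -0.78, adjusted p = 0.0154), and FGF13 did not pass. FGF13 and FGF14 belong to the FGFs that stay inside the cell. The calls of FGF18 and FGF14 are weak: they ended with the DESeq2 Wald test and without Bromo+/- replicate 2, control replicate 1 or control replicate 2. Without these libraries the adjusted p was 0.101, 0.0617 and 0.171 for FGF18 (0.00677 to 0.179 over the alternatives) and 0.106, 0.088 and 0.0523 for FGF14 (0.0145 to 0.189). Of the 13759 exon bases of FGF14, 4354 are shared with ITGBL1 on the opposite strand, a gene with 1849 counts, so the count of FGF14 is uncertain.

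Genes for proteins that bind FGFs or their receptors moved in both directions. The log2 fold changes in this and the following paragraphs are from the same edgeR fit. Of 9 co-receptor and binding protein genes, 6 were tested, 4 were higher and 1 lower, with a median log2 fold change of 1.62 against 0.01 over all genes, of which 26.4% were higher and 27.1% lower. CDH2, the N-cadherin known to hold FGFR1 at the surface, rose from 52.5 and 50.1 CPM in the controls to 119 and 125 CPM (log2 fold change 1.25, SE 0.07). FLRT2, a transmembrane protein that binds FGF receptors and axon guidance receptors, rose from 4.2 and 5.62 to 17.9 and 21.3 CPM (1.98, SE 0.17), while its relative FLRT3 fell from 42.3 and 41.1 to 5.62 and 5.67 CPM (-2.88, SE 0.14). NCAM1, a neural adhesion molecule that can bind FGFR1, rose by 2.18 (SE 0.47) from 8 and 4 counts to 29 and 30, and by 2.81 without control replicate 1. FGFBP3, another FGF-binding protein of this list, rose by 2.16 (SE 0.57) from 5 and 3 counts to 17 and 22, opposite to FGFBP1. KL had no count, and KLB, the co-receptor that FGFR4 uses, had 4 to 8 counts in each library and was not tested.

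Genes of heparan sulfate, the sugar chain that FGFs and their receptors bind, also moved both ways. Of 11 proteoglycan core genes, 8 were tested, 5 were higher and 2 lower, with a median of 0.47, beside 26.4% higher and 27.1% lower over all tested genes. SDC1 and SDC4, the syndecans that led in the controls, fell from 414 and 411 to 179 and 165 CPM (SDC1, log2 fold change -1.26) and from 360 and 346 to 189 and 175 CPM (SDC4, -0.95). SDC3, a syndecan best known from neurons, rose from 14.1 and 16.3 to 75.4 and 78.1 CPM (2.33), and the glypican GPC6 rose by 1.44. SDC2, a syndecan of mesenchymal cells, had 36 and 30 counts against 0 and 1, a ratio of 61.7 (95% exact interval 10.7 to 2470), and was named after its values were seen. Of 21 genes of heparan sulfate synthesis and editing, 15 were tested, 7 were higher and 5 lower, with a median of 0.3, beside the same shares over all tested genes. The endosulfatases SULF1 and SULF2, which remove 6-O-sulfate groups that FGF receptor complexes use, went opposite ways: SULF1 had 93 and 113 counts against 1 and 0, a ratio of 193 (95% exact interval 34.2 to 7650, counting error only; its single control count is in control replicate 1), and SULF2 fell from 143 and 135 to 62 and 57.2 CPM (-1.22). HS3ST1, a 3-O-sulfotransferase, had 2 and 1 counts against 113 and 169, so that the controls exceeded it by a ratio of 100 (34 to 490), and EXTL2, a glycosyltransferase of the same pathway, rose by 1.31. Exons of SULF2 share 96 bases with NCOA3 on the opposite strand.

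Of 16 genes for adaptors and relays of the receptor signal inside the cell, all tested, 4 were higher and 4 lower, 8 did not pass, and the median was -0.06, where 53.5% of all tested genes passed. The adaptor SHC1 rose from 237 and 244 to 559 and 526 CPM (log2 fold change 1.18, with 335 of its exon bases shared with PYGO2 on the same strand) and PLCG1, a phospholipase bound by active FGF receptors, rose by 0.56. The docking protein GAB1 fell by 1.23 and the kinase MAP2K1 by 0.73. MAP2K2, the related kinase, went the other way and rose from 88.1 and 83.3 to 121 and 108 CPM (0.42). FRS2, a docking protein of FGF and neurotrophin receptors, did not pass (252 and 265 counts against 256 and 308, -0.22). Its relative FRS3 was higher (32 and 35 counts against 16 and 13, 1.11). Of 11 feedback inhibitors, all tested, 5 were higher, 3 lower and 3 did not pass, where again 53.5% of all tested genes passed. The median was 0.09. SPRED3 rose by 2.28 (SE 0.39), from only 7 and 10 counts in the controls to 47 and 42. SPRED1 rose (0.64), and SPRY2 (-0.77) and the phosphatase DUSP4 (-0.73) fell. DUSP6, a phosphatase widely used as a readout of FGF signalling, did not pass (-0.11). All cells carry an oncogenic HRAS and were grown with epidermal growth factor. The part of either in these levels was not tested.

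Of 10 transcriptional targets of FGF and MAP kinase signalling, all tested, 3 were higher and 7 lower, with a median of -0.3, beside 26.4% higher and 27.1% lower over all tested genes. The ETS factors ETV1 and ETV5 rose, ETV1 from 4.68 and 4.76 to 21 and 22.1 CPM (log2 fold change 2.19) and ETV5 by 0.8, while the third ETS factor of this group, ETV4, was lower by a small margin (-0.22). FOS fell from 41.5 and 42.4 to 7.42 and 8.33 CPM (-2.41) and FOSL1 by 0.72. These are transcript levels, receptor activity was not measured, and the part of the oncogenic HRAS and of epidermal growth factor was not tested. Of 8 regulators of FGF receptor splicing, 3 were higher and 4 lower, 1 did not pass, and the median was -0.13, beside those same shares. ESRP1 had 9 and 8 counts under the Bromo+/- label and 1871 and 2216 in the controls (-7.98, SE 0.35), and ESRP2 fell from 141 and 137 to 76.5 and 76.7 CPM (-0.86). HNRNPF was lower by 0.22 and HNRNPH1 higher by 0.2, both small, and the latter call ended without control replicate 2 (adjusted p = 0.0575, the highest over the alternatives, from 2.71e-07). The splice forms of FGFR1 and FGFR2 themselves were not measured. Over the 8 lists together, 77 of 106 genes were tested, 32 were higher and 27 lower, with a median of -0.03, where 53.5% of all tested genes passed.

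**Figure D3:**
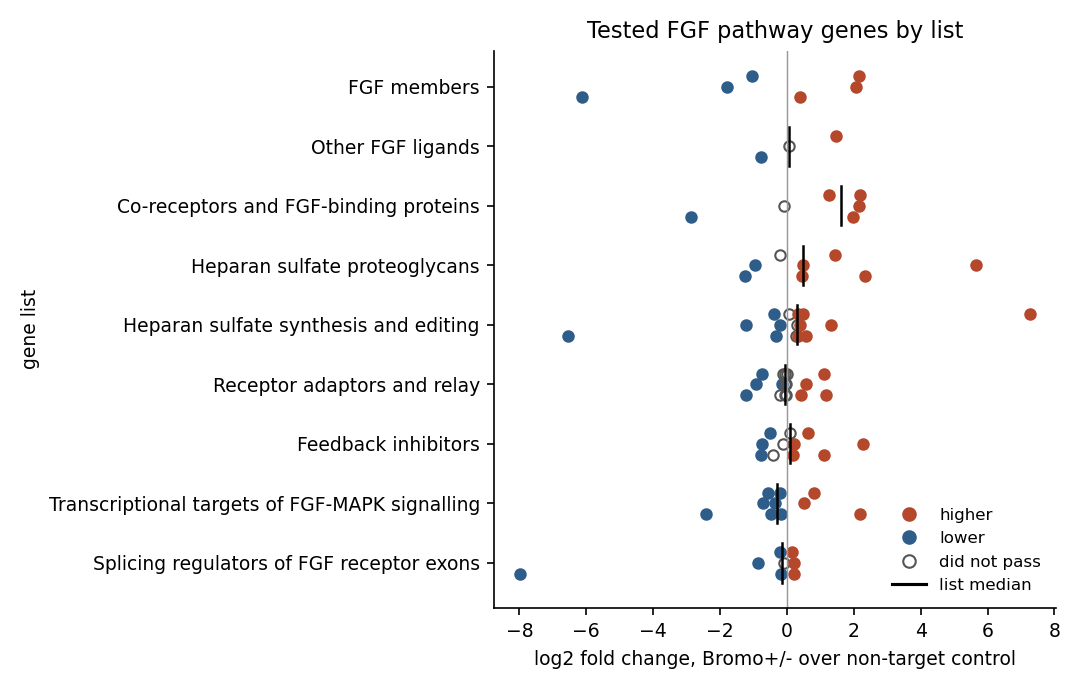
Log2 fold changes of the tested genes of each list, with filled points for genes past the threshold, open points for those that did not pass and a bar at the median of each list other than the FGF family genes. The binding proteins have the highest median (1.62), the relay genes have a median of -0.06, and single genes lie far out at ESRP1 (-7.98), HS3ST1 (-6.53), FGFBP1 (-6.14), SDC2 (5.64) and SULF1 (7.28), where the fitted values of HS3ST1, SDC2 and SULF1 rest on at most 3 counts in a group and are no measure of size.

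Genes whose levels followed a member most closely were found by the distance between log2 CPM values centred on each gene's mean over the 4 libraries, among 10726 genes. With only 2 groups of 2 libraries, this measure mostly ranks genes by the size of the group difference. For FGFR1, the closest were CHST10, a sulfotransferase (distance 0.0845), ETV1 (0.0915) and BASP1, a membrane-bound protein of growing axons (0.11), with log2 fold changes of 2.25, 2.19 and 2.15 against 2.17 for FGFR1. For FGFBP1, the closest was KRT15, a keratin of basal epithelial cells (0.122), which had 40 and 35 counts against 2433 and 2287. BICDL2 (0.183) and CAPN8 (0.2) followed, both without any count under the Bromo+/- label, so that their distance depends on the prior count.

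All 6 calls kept their direction and passed the threshold under each of the 12 alternatives run, including those that left out each library in turn. The log2 fold change lay between 2.14 and 2.25 for FGFR1, 2.02 and 2.15 for FGF2, 0.31 and 0.47 for FGFRL1, -6.25 and -6.06 for FGFBP1, -1.97 and -1.57 for FGFR2 and -1.33 and -0.83 for FGFR4. In the fits without a library, 1 group has a single library, which is assumed to vary like the other group.

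**Figure D4:**
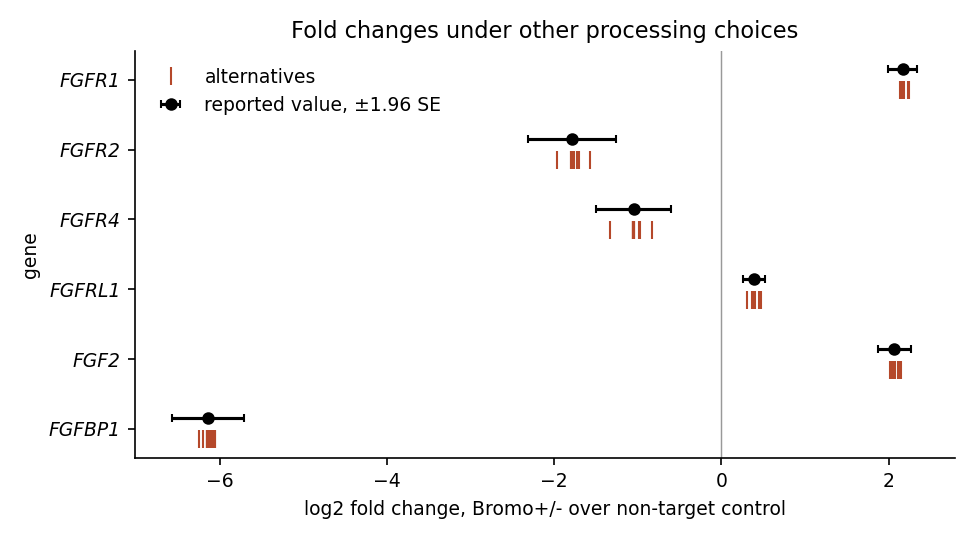
Log2 fold change of each tested FGF family gene as reported (black, with bars of 1.96 SE) and under each of the 12 alternatives (red ticks below it). No tick crosses 0, and FGFR2 and FGFR4 show the widest spread of ticks.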

How the data were processed

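RNA from 4 MCF10AT libraries (2 labelled Bromo+/-, 2 Non-target control) was made into stranded poly(A) libraries, per the labels' protocols. The authors deposited raw counts per Ensembl gene in one table, made with STAR (version not given) on GRCh38 and featureCounts 1.5.2, per the submitters' processing notes. The deposited table also gives the exon length of each gene, another column of the authors, which was used for levels per length. The sources used here give neither the annotation release nor the strand setting, nor how reads with several matches were treated. Columns whose names begin with Br and WT were matched to the Bromo+/- and Non-target control titles and their replicate numbers. Symbols were found for 57392 of 58233 identifiers.

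The test was that of edgeR 4.0.16 in R 4.3.3 (filterByExpr, trimmed mean of M values, robust quasi-likelihood test, Benjamini-Hochberg over 13179 genes, threshold 0.05). The design left 2 residual degrees of freedom, and the spread was largely shared across genes (median prior degrees of freedom 253), so p-values rest on the typical gene's spread. SE is the Wald standard error of the fitted model. CPM and RPKM use scaled library sizes. Named genes are all 8 members, up to 4 called genes of each pathway list with the smallest p, genes sharing exon bases with a member, and the 3 genes closest to the called member with the smallest p in each direction (average log2 CPM of at least 2, prior count 2). FGF10, FGF7, FGF13, FGFBP3, SDC2, KL, KLB, FRS2, FRS3, MAP2K2, DUSP6 and ETV4 were named after their values were seen. The members and lists were chosen with earlier results of these data known. Alternatives were DESeq2 1.42.0 size factors and Wald test, no filter and a stricter one, scaling by the upper quartile or by library size alone, limma 3.58.1 voom, a replicate block and each library left out. Replicates differed by more than sampling noise (chi-square per degree of freedom 2.59 and 1.6). The procedure was run on simulated data in which far fewer genes changed than were called here, and none by as much as FGFBP1. Scaling and false calls were thus not tested at the share of called genes seen here.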

Additional observations from a re-analysis of the deposited data

How the results depend on the processing

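FGFR1, FGFR2, FGFR4, FGFRL1, FGFBP1 and FGF2 kept their direction and call under all 12 alternatives. Over all genes, 7055 were called, 5551 to 6641 with a library left out, and the DESeq2 Wald test called 2292 higher, against 3485, with 4884 in all. The labels do not say that a replicate number marks anything shared, and the deviations of same-numbered libraries were hardly correlated across genes (0.0484). With the replicate block 7271 genes were called, and no call of the 6 genes changed. The mean share of FGFR1 among the receptor kinases per length moved from 90.5% to 91.8% (Bromo+/-) and from 45.9% to 48.9% (control) with the principal transcript length, since shorter lengths raise FGFR1 and FGFR2 most. Of 432 values for 36 other named genes, 421 kept their call, 11 lost it and 0 turned. These 36 do not include NUDT6, the cell type markers or the genes named after their values were seen. FGFR3 and FGF5 entered only without the filter, where the lower adjusted p of the 2 was 0.633. Depth limits FGFR2, FGFR4, FGFR3 and FGF5 most.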
